A study of Mus musculus with 24 samples.

Results

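The vehicle profile described here is the miRNA signal of serum exosomes from mice that received no toosendanin, taken over the 12 arrays titled as 3-day, 9-day and 21-day control, out of 24 arrays in the series. The arrays were chosen by their titles alone, with 4 arrays per day. All animals were male BALB/c mice, their age is not given in the sources used here, and the vehicle is not named in the labels. The other 12 arrays carry serum exosome RNA of mice given toosendanin (TSN), a plant triterpenoid that injures the liver, at 80 mg/kg for 3, 9 or 21 days. Serum was drawn a day after the last dose, and Cy3-labelled RNA was read on one-colour arrays with probes for 1881 mouse miRNAs. The labels do not say whether an array holds 1 animal or a pool, so the p-values below measure the spread between these samples, which may be technical.

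MicroRNAs are short RNAs of which bases 2 to 8, the seed, pair with target messages. They are cut from a hairpin precursor whose arms give the 5p and the 3p product, and usually one arm is kept. Exosomes are small vesicles that cells shed into the blood. Red cells, platelets and white cells are known sources of circulating miRNA, and miR-122-5p is the classic liver miRNA.

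The results use a share of signal. A miRNA was counted on an array where the scanner software gave its probe as well above background on more than a 0.5 share of its spots, and its share is its percentage of the summed fluorescence of all miRNAs counted on that array. A miRNA not counted on an array has a share of 0 there. A share does not depend on the scaling between arrays. It is a share of fluorescence and not of molecules, because probes differ in affinity and miRNAs in labelling. An order of miRNAs below is therefore an order of signals.

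Of the 1881 miRNAs, 154 (8.19%) were well above background on all 12 control arrays, 213 on 1 to 11 of them and 1514 on none. The number on single arrays was 204, 191, 262 and 273 on day 3, 212, 183, 298 and 182 on day 9, and 182, 311, 351 and 245 on day 21. The days overlapped in full. The 154 miRNAs held 96.4% to 98.9% of the signal of a control array. Of these 154, 152 were also well above background on all 12 TSN arrays.

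The number of miRNAs counted followed how bright the array was. The 75th percentile of the signal, taken over 261 probes that passed the background flag on each of the 24 arrays, ran from 73.5 to 609 fluorescence units over the control arrays, an 8.28-fold range. Across the 12 arrays its log2 correlated with the number of miRNAs counted at Pearson's r = 0.988 (permutation p = 2e-05, adjusted over 7 relations p = 0.00014) and Spearman's rho = 0.977 (permutation p = 2e-05, adjusted p = 0.00014). Without the 2 arrays farthest from the median brightness, r was 0.973, and the relation had the same direction within each of the 3 days. Control spots named dmr_3 and dmr_6 differed by 1.19-fold and 1.23-fold over the same arrays, while those named dmr_285 and dmr_31a differed by 3.78-fold and 3.54-fold.

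The control arrays lie on slides 1 and 2. Days 3 and 9 share slide 1, and day 21 is alone on slide 2, so day 21 and its slide cannot be told apart. On slide 1, day 3 lies in row 1 and day 9 in row 2, so these days and their rows cannot be told apart. Slides 1 and 2 were scanned on different days, and the TSN slides on another. The TSN arrays lie on 2 further slides, so the arm and the slide cannot be told apart either. TSN arrays were brighter than every control array, with a 75th percentile of 737 to 1748. The control spots dmr_285 and dmr_31a read 1950 to 2850 and 626 to 978 there, against 371 to 1400 and 118 to 417 on control arrays. The medians of dmr_3 and dmr_6 were 29800 and 26400 on TSN arrays and 30900 and 27400 on control arrays.

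**Figure D1:**
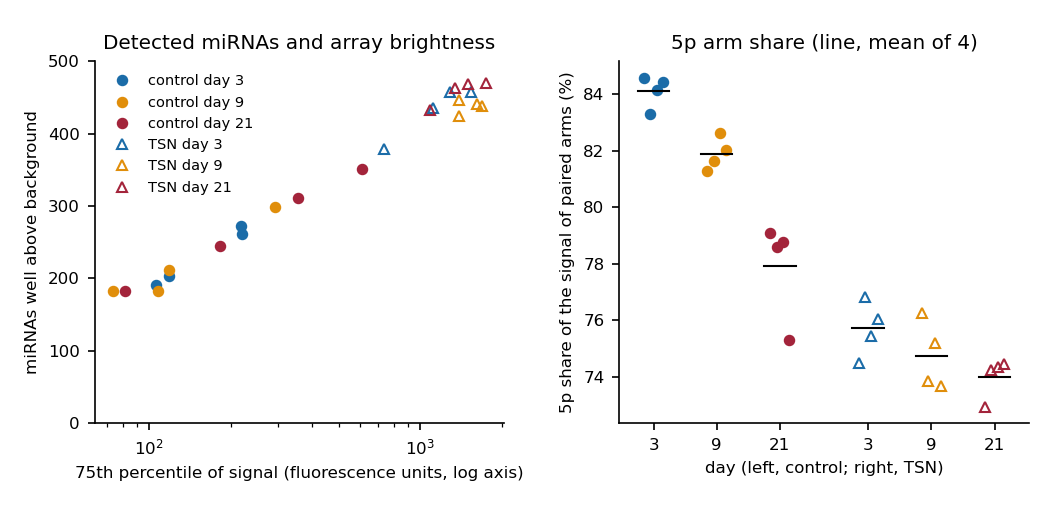
Left, the number of miRNAs well above background (vertical axis) against the 75th percentile of the signal (fluorescence units, log axis) for the 24 arrays; the 12 control arrays (filled) run from 182 to 351 miRNAs and the 12 TSN arrays (open) from 379 to 470. Right, the 5p share (%) of the signal of precursors with both arms on the array, 4 arrays per day and arm with the mean as a line; it was 84.1%, 81.9% and 77.9% on control days 3, 9 and 21.

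The signal of the vehicle profile sat in few miRNAs, led by miR-1224-5p, miR-451a, miR-709 and miR-5126, which together held 51.5% ± 2.63 (SD, n = 12) of it. The 10 miRNAs with the highest mean share held 66.4%, the first 20 held 74.9% and the first 50 held 86.9%. On every control array 4 or 5 miRNAs were enough to reach 50% of the signal. The sequences of the leading miRNAs that RefSeq's table holds (build GRCm38.p6) are shown to let their composition be seen, 5′ to 3′, with the seed in capitals.
miR-1224-5p: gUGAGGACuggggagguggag
miR-451a: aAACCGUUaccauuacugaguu
miR-5126: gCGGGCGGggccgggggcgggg
miR-8110: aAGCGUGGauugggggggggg
miR-3963: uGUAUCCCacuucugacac
miR-6769b-5p: cCUGGUGGguggggaagagc
miR-21a-5p: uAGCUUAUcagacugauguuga
miR-5128: cAAUUGGGgcuggcgagauggcu
miR-23a-3p: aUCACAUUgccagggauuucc
miR-16-5p: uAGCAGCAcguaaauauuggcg
Several of the leaders are rich in G, with a run of G towards the 3′ end in miR-8110 and miR-5126, and none of these 10 shares its seed with another.

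miR-1224-5p, cut from chr16:20604452-20604472 on the plus strand within the span of Vwa5b2, was the brightest on average. Its shares were 22%, 20.8%, 20.6% and 20.7% on day 3, 19%, 20.1%, 18.2% and 18.7% on day 9, and 14.7%, 14.7%, 13% and 12.5% on day 21. The 3 days did not overlap. It ranked first or second on every control array.

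miR-451a, an erythroid miRNA that is made without Dicer, lies at chr11:78073186-78073207 on the plus strand, outside the genes searched. Its shares were 8.04%, 12.0%, 14.5% and 8.61% on day 3, 8.36%, 17%, 12.5% and 11.7% on day 9, and 14.5%, 13%, 17.1% and 22.7% on day 21. The days overlapped, and the spread within a day was wide, with an SD of 3.05 to 4.26 percentage points. miR-1224-5p was brighter than miR-451a on 10 of 12 arrays.

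miR-709 held 7.91% at the lowest, 9.96% at the median and 14.5% at the highest. miR-5126, within the span of Dner at chr1:84695890-84695911 (plus strand), held 6.96%, 10.1% and 12.3% in the same terms. miR-709 was the brighter of these on only 7 of 12 arrays, and miR-451a was brighter than miR-709 on 8, so the order of places 2 to 4 did not hold from array to array. The step after them did, with miR-5126 brighter than miR-8110 on 12 of 12 arrays.

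The next 6 by mean share were miR-8110 at 3.56% ± 0.898, miR-3963 at 3.02% ± 0.902, miR-6769b-5p at 2.82% ± 0.538, miR-21a-5p at 2.62% ± 0.803, miR-3960 at 1.51% ± 0.384 and miR-5128 at 1.33% ± 0.359 (SD, n = 12). miR-21a-5p, a broadly expressed miRNA within the span of Vmp1 at chr11:86584120-86584141 (minus strand), took any place from 5 to 10. miR-8110 and miR-3963 each led the other on 6 arrays. Of the neighbours from place 5 to place 20, none kept its order on more than 9 of 12 arrays.

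Places 11 to 20 were taken by miR-7118-5p (1.11%), miR-23a-3p (1.09%), miR-486a-5p (0.950%), miR-16-5p (0.935%), miR-7036a-5p (0.797%), miR-1895 (0.790%), miR-5100 (0.753%), miR-2137 (0.751%), miR-7047-5p (0.701%) and miR-494-3p (0.690%). miR-486a-5p and miR-16-5p are abundant in red cells, and miR-23a-3p is often used as a reference that red cell lysis leaves alone. The widest range of places among the 20 was that of miR-486a-5p, from 10 to 31.

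**Figure D2:**
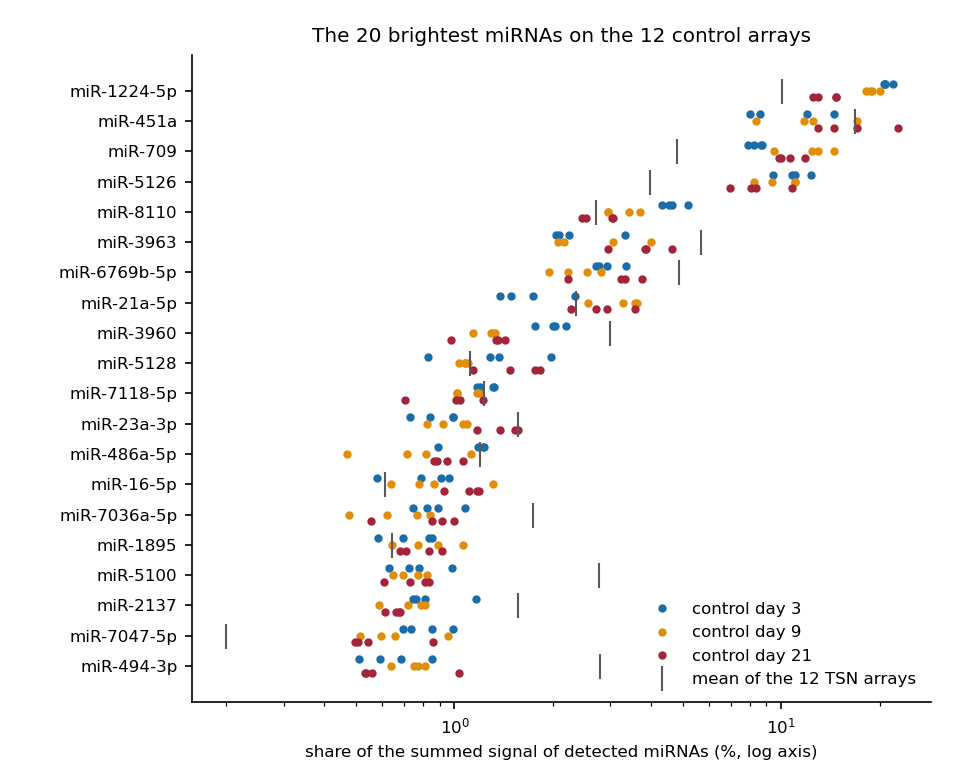
Share of the summed signal of detected miRNAs (%, log axis) for the 20 miRNAs with the highest mean share, 1 point for each of the 12 control arrays coloured by day, with the mean of the 12 TSN arrays as a vertical tick. miR-1224-5p runs from 12.5% to 22% in controls with a TSN mean of 10.0%, and miR-494-3p averages 0.690% in controls with a TSN mean of 2.80%.

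The leading probes are short, and neighbouring probes of 1 miRNA could give very different signals. Each miRNA has a median of 2 probes, which on this design pair with the 3′ end of the miRNA (3752 of 3770 probes whose mature sequence is in RefSeq's table matched that end base for base). The probes of 4 leaders are shown from the array files, 5′ to 3′, with the bases that the longer probe adds in capitals.
miR-1224-5p, 10 bases: ctccacctcc
miR-1224-5p, 11 bases: ctccacctccC
miR-451a, 21 bases: aactcagtaatggtaacggtt
miR-451a, 22 bases: aactcagtaatggtaacggttT
miR-5126, 10 bases: ccccgccccc
miR-5126, 11 bases: ccccgcccccG
miR-8110, 10 bases: cccccccccc
miR-8110, 11 bases: ccccccccccA
For miR-1224-5p the longer probe was brighter than the shorter by a median of 21.5 times over the 12 arrays (17.7 to 27.4 times), with median signals of 8460 and 358. For miR-451a the same ratio was 1.40 (1.35 to 1.42). For miR-709 a probe of 12 bases gave 7.03 times the signal of one of 11, and for miR-5128 a probe of 15 bases gave 12.8 times that of one of 14. Over all nested probe pairs that differ by 1 base and passed the background flag on each control array, the median ratio was 1.22 where the longer probe had at most 14 bases (42 pairs, 9 over 2-fold) and 1.58 where it was longer (68 pairs, 15 over 2-fold). The brightest probe stood for each miRNA, and this choice bears on the order: with the mean of all probes in its place, miR-451a led with 15.6% and miR-1224-5p followed with 12.8%. In the authors' deposited log2 values, taken back to the linear scale, miR-451a led with 10.1% and miR-1224-5p was in place 6 with 4.74%.

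Probe length divided the signal. The 500 miRNAs whose standing probe has 14 bases or fewer held 59.8% ± 6.25 (SD, n = 12) of the signal on control arrays, and the 1381 others held 40.2%. On control days 3, 9 and 21 the short-probe share averaged 65.4%, 61.1% and 53%, and it averaged 51.9% on TSN arrays. Of the first 20 miRNAs by mean share, 13 had a probe of 14 bases or fewer, against 45 of the 134 on places 21 to 154. These places are not the same set as the 154 miRNAs on all 12 arrays, of which 61 had such a probe. The median probe GC content was 66.7% in the first 20 and 56.2% on places 21 to 154. It was 52.9% in the 1514 miRNAs counted on no control array. miRNAs numbered 3000 and above, which entered the catalogue late, were 936 of the 1881 and held 36.9% ± 4.28 of the signal, and 78 of the 154 miRNAs present on all control arrays were of this kind.

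The concentration of signal in the top places differed between arms on this measure. The 10 brightest miRNAs of each array held 66.4%, 67.8% and 65.3% on control days 3, 9 and 21, which did not differ between days (exact permutation test over 34650 allocations, two-sided p = 0.155, adjusted p = 0.311 over 4 measures). They held 58.3% on TSN arrays (54.0% to 62.2%), below the lowest control array at 62.7% (difference 8.22 percentage points, exact permutation within days, p = 5.83e-06, the smallest that 343000 allocations can give, adjusted p = 5.83e-06). It took 4 or 5 miRNAs to hold 50% on a control array and 6 to 9 on a TSN array (exact permutation p = 5.83e-06, adjusted p = 5.83e-06). Both directions turned in the authors' deposited log2 values, where the share of the first 10 was 4.71 points lower in controls, and the top-10 difference was -0.885 with normexp background correction (exact permutation p = 0.389). The top-10 share also fell with brightness across the 12 control arrays (Pearson's r = -0.747, permutation p = 0.00696, adjusted p = 0.0162; Spearman's rho = -0.559, permutation p = 0.0639, adjusted p = 0.186), with r of -0.406 without the 2 arrays farthest from the median. The part of brightness in the difference between arms was not tested.

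**Figure D3:**
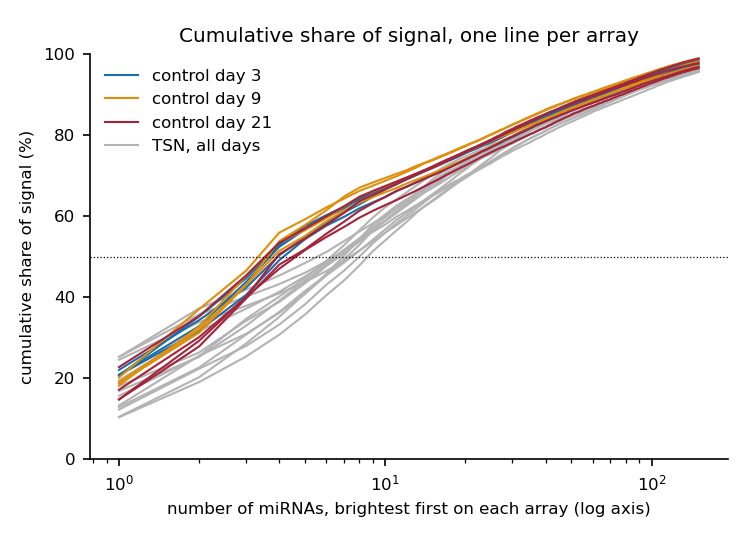
Cumulative share of signal (%) against the number of miRNAs, brightest first on each array (log axis), with 1 line per array and the 50% level dotted. The 12 control lines (coloured by day) cross 50% at 4 or 5 miRNAs and the 12 TSN lines (grey) at 6 to 9.

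The top of the list was largely shared with the TSN arrays. Of the 10 highest mean shares, 8 were the same in both arms, and of the 20 highest, 17 were. miR-16-5p, miR-1895 and miR-7047-5p were among the 20 in controls only, and miR-6366, miR-15b-5p and miR-6931-5p in TSN only. miR-1224-5p averaged 10.0% in TSN (8.05% to 12.3%), all below the lowest control array at 12.5%, and miR-451a averaged 16.8% (8.72% to 25.2%), which overlapped the controls.

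Among 10 lists of miRNAs linked to a tissue or cell, the red cell list had the largest share. Some members are in more than 1 list or are broadly expressed, so the share of a list is not a share of origin. The red cell list held 16.4% ± 4.67 (SD, n = 12), with 7 of its 9 members on the array present on all 12 arrays, and miR-451a alone gave 13.3%. After miR-451a came miR-486a-5p, with a lowest, median and highest share of 0.469%, 0.919% and 1.23%. The pair miR-144-3p and miR-144-5p, from the same transcript as miR-451a, held 0.357% and 0.0583%.

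The ratio of miR-451a to miR-23a-3p is used in human serum as a gauge of red cell lysis. Its log2 was 3.02, 3.61, 4.31 and 3.35 on day 3, 2.94, 4.00, 3.92 and 3.67 on day 9, and 3.4, 3.06, 3.87 and 3.90 on day 21. The days overlapped, and their means were 3.57, 3.63 and 3.56. The reference of the ratio was not steady: miR-23a-3p was itself called between control days (day 21 minus day 3 of 0.70, limma adjusted p = 0.0125), and the same difference was 0.69 for miR-451a. Since each miRNA has its own probe, the value can be set between arrays but not against thresholds from other assays.

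The platelet list held 3.67% ± 1.03, of which miR-21a-5p gave 2.62% and miR-223-3p 0.570%. The leukocyte list held 1.05% ± 0.363. Its leading members were miR-223-3p, known from myeloid cells, and miR-142a-3p, known from blood-forming cells in general, at 0.386% ± 0.168. miR-155-5p, miR-181a-5p and miR-223-5p were on no control array. The fibroblast and stellate cell list held 3.32% ± 0.916, but miR-21a-5p, which is also in the platelet list, gave most of it. miR-199a-3p was on 11 of 12 arrays at 0.0306%, and miR-199a-5p and miR-214-3p were on none. miR-29a-3p, second in that list, held 0.459% ± 0.0824.

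Liver miRNAs gave little signal in vehicle serum exosomes. The liver list held 0.241% ± 0.0799, and its leaders were miR-215-5p at 0.112% ± 0.0282 and miR-192-5p at 0.0716% ± 0.0204, which share a seed and are also made in the gut and kidney. miR-122-5p passed the background flag on 9 of the 12 arrays, with a median share of 0.0354% and a highest of 0.0917%. miR-122-3p and miR-194-5p were on none.

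The lists of muscle, epithelium and pancreas had no member on all 12 arrays, and those of brain and endothelium had 1 and 3. Of the muscle and heart list, miR-1a-3p was on 3 of 12 arrays and miR-133b-3p on 1, and the list held 0.0227% at most. miR-133a-3p, miR-206-3p, miR-208a-3p, miR-208b-3p and miR-499-5p were on no control array. The list holds only the 3p arm of miR-208a. Its other arm, miR-208a-5p, with a probe of 14 bases, passed the background flag on all 4 arrays of at least 1 control day. Of 9 brain miRNAs, miR-128-3p alone was present, on all 12 arrays at 0.130% ± 0.0343, while miR-9-5p and miR-124-3p, the usual neuronal markers, were on none. Of 7 epithelial miRNAs, miR-203-3p was on 2 arrays and the 6 others on none. None of the 4 pancreas miRNAs, miR-375-3p among them, was on a control array. The endothelium and vessel wall list held 0.202% ± 0.0392, with miR-126a-3p at 0.0723% ± 0.0128 and miR-221-3p at 0.0631% ± 0.0158, and miR-145a-5p was on no control array. A miRNA not well above background on these arrays is below their detection, which differed with brightness, and is not shown to be absent. In serum, fewer vesicles from a tissue and less miRNA per vesicle cannot be told apart.

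**Figure D4:**
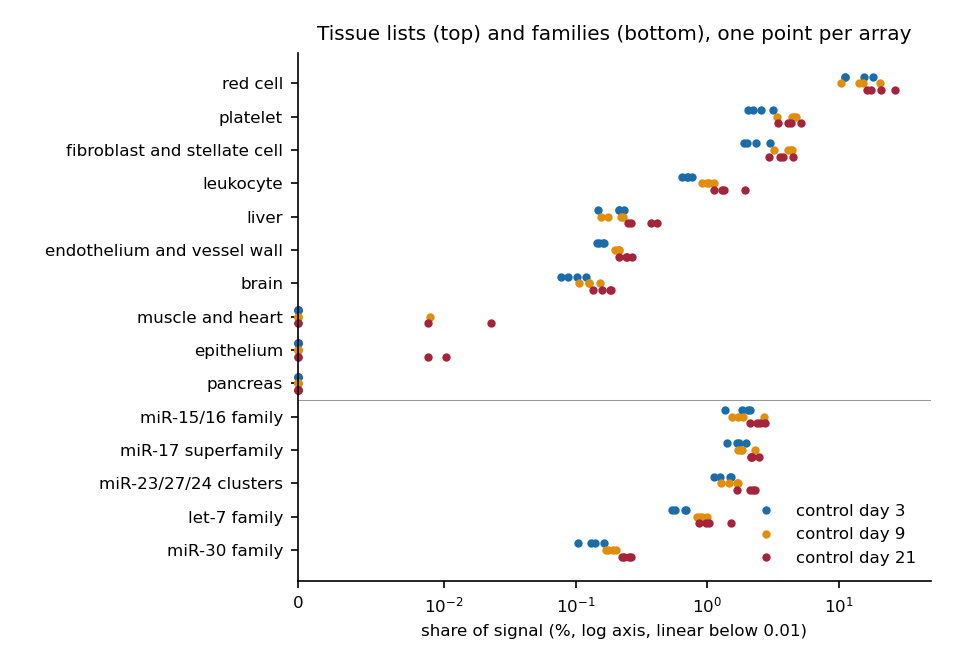
Share of signal (%, log axis that is linear below 0.01) of 10 tissue lists (above the line) and 5 miRNA families (below it), 1 point for each of the 12 control arrays coloured by day. The red cell list runs from 10.3% to 26.4%, the liver list from 0.149% to 0.417%, and the pancreas list is at 0 on every array.

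By seed, the largest families with at least 2 members on all 12 arrays were the miR-15/16 family, the miR-130/301 family and the let-7 family. The 1608 miRNAs with a sequence in RefSeq's table covered 84.6% of the control signal on average (80.8% to 86.3%), and 263 seeds were seen on at least 1 control array. The 5 seeds with the highest share each belonged to 1 miRNA, namely miR-1224-5p, miR-451a, miR-5126, miR-8110 and miR-3963. Only 13 seeds had 2 or more members on all 12 arrays, and together these held 7.65% of the signal.

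The miR-15/16 family, seed AGCAGCA, held 2.07% ± 0.441 in all. miR-16-5p gave 0.935%, miR-15b-5p 0.652% and miR-15a-5p 0.444%, and 3 other members were on 5 to 9 arrays. These are known as brakes on the cell cycle and are abundant in blood. The family with seed AGUGCAA, to which miR-130a-3p (0.617%) and miR-301a-3p belong, held 0.987% ± 0.181 with all 4 of its detected members on 12 arrays.

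The let-7 family, seed GAGGUAG, held 0.870% ± 0.257. Its members are near copies, as the sequences of 7 of them show, and the arrays do not tell how far their probes also bind each other's RNA.
let-7a-5p: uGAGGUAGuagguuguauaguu
let-7b-5p: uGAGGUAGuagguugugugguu
let-7c-5p: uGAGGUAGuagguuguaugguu
let-7d-5p: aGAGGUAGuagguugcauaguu
let-7f-5p: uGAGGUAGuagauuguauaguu
let-7g-5p: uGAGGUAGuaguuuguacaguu
let-7i-5p: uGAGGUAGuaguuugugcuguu
let-7i-5p led with 0.245% ± 0.0574 and let-7f-5p followed with 0.167% ± 0.0631. let-7e-5p was on 3 arrays and miR-98-5p on 2.

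The miR-17 superfamily, from 3 related clusters known for growth control, held 1.95% ± 0.303, led by miR-92a-3p at 0.465% ± 0.0665 and miR-19b-3p at 0.355% ± 0.0805. miR-106b-5p, the miRNA of the series title, is at chr5:138165787-138165807 on the minus strand within the span of Mcm7 (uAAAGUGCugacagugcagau, seed in capitals). It was on all 12 control arrays with a share of 0.101% at the lowest, 0.157% at the median and 0.216% at the highest, in place 66 by mean share. Its log2 scaled signal averaged -1.10, -0.98 and -0.75 on days 3, 9 and 21, which did not pass the test between days (limma adjusted p = 0.323). The miR-23/27/24 clusters held 1.65% ± 0.380, led by miR-23a-3p and miR-24-3p (0.344% ± 0.0715), and the miR-30 family 0.188% ± 0.0495, led by miR-30b-5p (0.0605%) and miR-30a-5p (0.0408%). The miRNA families encoded in an intron of Sfmbt2 had 7 of 61 entries on any control array, with miR-466i-5p (11 arrays, 0.0834%) and miR-669f-3p (9 arrays, 0.0222%) first.

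Where a precursor was seen, it was mostly by 1 arm. The array has both arms of 723 precursors, most of which showed neither. On most control arrays (7 or more of 12), 94 of these had only the 5p arm well above background, 42 only the 3p arm, 8 both and 579 neither. miR-1224, miR-6769b, miR-21a and miR-7118 were the brightest with the 5p arm on all 12 arrays and the 3p arm on none. miR-23a, miR-494, miR-130a and miR-223 were the brightest in the opposite sense. Of 371 precursors numbered 3000 and above, 51 showed only the 5p arm and 11 only the 3p arm. Of 352 with lower numbers, 43 and 31 did. The arms have different probes, so these are counts of probes that passed the flag and not of strands kept.

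Both arms were on all 12 control arrays for 4 precursors. For miR-144 the log2 ratio of the 5p to the 3p signal was -2.65 ± 0.285 (SD, n = 12), with the 3p arm brighter on every array. For miR-140 it was -0.36 ± 0.293 and for miR-328 0.09 ± 0.671. For miR-3620 it was 1.68 ± 1.03, and its 3p probe is 1 of 3 that did not follow the brightness of the array, as described below. A ratio of 2 probes carries their difference in affinity, so it serves between arrays only.

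The 5p arms held less of the paired-arm signal on later control days. The 5p share was 84.6%, 83.3%, 84.2% and 84.4% on day 3, 81.3%, 81.6%, 82.6% and 82.0% on day 9, and 79.1%, 78.6%, 78.8% and 75.3% on day 21, so the days did not overlap (exact permutation test over 34650 allocations, p = 0.000173, adjusted p = 0.000693 over 4 measures). With the total gene signal the call was lost (exact permutation, adjusted p = 0.38). Days 3 and 9 alone, which share a slide but not a row, differed by 2.22 points. Exact permutation gave p = 0.0286, the smallest 70 allocations can give (adjusted p = 0.114). Without the miR-1224 precursor the share was 71.9% ± 0.845, 69.3% ± 1.28 and 67.7% ± 2.26 (SD, n = 4) on the 3 days, and days 9 (67.8% to 70.9%) and 21 (64.5% to 69.7%) overlapped. TSN arrays had 74.8% on average, 6.50 points below controls (exact permutation p = 5.83e-06, adjusted p = 5.83e-06). Without miR-1224 the means were 69.6% in controls and 67.9% in TSN, and in the authors' deposited log2 values the difference was -0.550 points (exact permutation p = 0.419).

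Between control days, let-7 and miR-30 family members, miR-223-3p and miR-21a-5p were higher on day 21 than on day 3, and miR-1224-5p, miR-8110 and miR-3960 were lower. In a limma fit of the log2 scaled signal over the 6 groups, 63 of 202 miRNAs tested differed between the 3 control days at an adjusted p under 0.05 (31.2% of those tested, moderated F test with Benjamini-Hochberg adjustment). The scaled signal is the signal over the array's 75th percentile. Of the 63, 41 were higher and 22 lower on day 21 than on day 3. The 41 had a median probe length of 19 and a median probe GC content of 45%, and 2 of them are numbered 3000 and above. The 22 had 13 and 72.1%, and 14 of them are so numbered. The 139 miRNAs not called had a median probe length of 15.

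**Figure D5:**
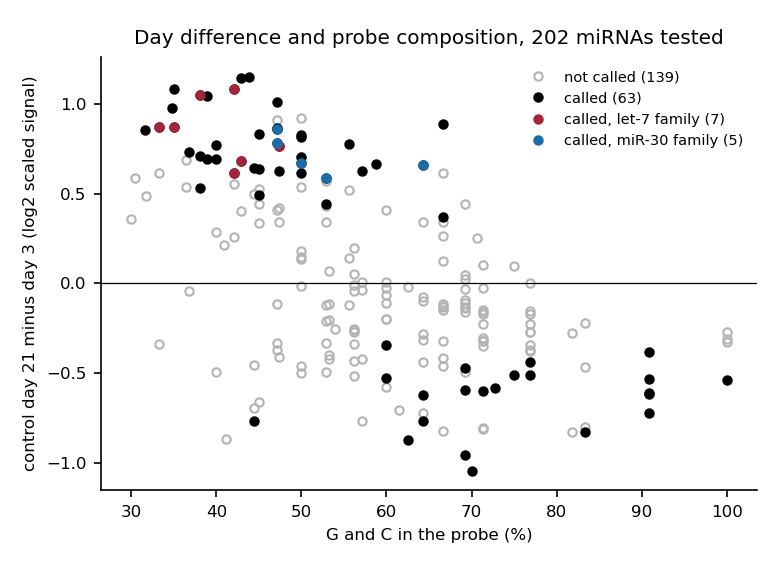
Difference of the log2 scaled signal between control day 21 and control day 3 (vertical axis) against the share of G and C in the probe (%) for the 202 miRNAs tested, 1 point per miRNA. Filled points are the 63 called between control days, with the 7 let-7 members in red and the 5 miR-30 members in blue, all above 0.

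A miRNA was tested if it passed the background flag on all 4 arrays of any control day, so 1 bright day was enough. Of 9 let-7 members 7 were tested and all 7 were called, with a median difference of 0.87 between days 21 and 3, where the median of all 202 miRNAs was -0.09. let-7g-5p had the smallest adjusted p of all. Its log2 scaled signals were -2.42, -2.32, -2.23 and -2.53 on day 3, -1.77, -1.5, -1.74 and -1.46 on day 9, and -1.66, -1.41, -1.39 and -0.82 on day 21. Day 3 lay below both later days, which overlapped. The difference between days 21 and 3 was 1.05 (SE 0.161, limma adjusted p = 0.000619). All 5 miR-30 members tested were called too, with a median difference of 0.67, but miR-30c-5p entered through day 21 only. miR-30e-5p, on 11 of 12 arrays, entered through days 9 and 21. Of the 3 miR-30 members on all 12 arrays, 3 were called when such miRNAs alone were tested, as were all 7 let-7 members. All 5 were also higher on day 21 in each other scaling run, but 1 of 5 was with normexp and 2 of 5 with the total gene signal. The number of miR-30 members called was 0 without scaling, 0 with normexp, 1 with the total gene signal and 2 with quantile normalization. The 7 let-7 members were higher on day 21 than on day 3 under every alternative run that holds day 21, and none of them was called with normexp or without scaling.

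miR-223-3p, the myeloid miRNA, came next. Its signals were 0.27, 0.40, 0.09 and 0.44 on day 3, 0.99, 0.93, 0.60 and 0.83 on day 9, and 1.39, 1.5, 1.04 and 1.82 on day 21, without overlap between the days (day 21 minus day 3 of 1.14, SE 0.184, limma adjusted p = 0.00113). The others among the 6 smallest adjusted p were miR-185-5p (difference 1.01, limma adjusted p = 0.00126), miR-425-5p (0.78), miR-7020-5p (0.88) and miR-669f-3p (1.04), and the last 3 had a limma adjusted p of 0.00165. miR-185-5p and miR-669f-3p passed the background flag on all 4 arrays of day 21 only, the day on which they were highest. Their calls rest on that filter, and they were not tested between days 3 and 9. miR-425-5p also did not pass the flag on all 12 control arrays. Against the 31.2% called over all miRNAs tested, 3 of 4 leukocyte, 3 of 5 platelet, 3 of 5 fibroblast and stellate cell and 2 of 3 endothelium miRNAs tested were called, all higher on day 21. These lists share members: miR-223-3p is in the first 2 and miR-21a-5p in the platelet and the fibroblast list. Of the called members, miR-142a-5p was on 11 of 12 arrays. It entered the test through days 9 and 21, on which it was higher than on day 3. None of the 9 red cell or 4 miR-15/16 family miRNAs tested was called.

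Among the 20 brightest, 6 were called, a share close to the 31.2% over all miRNAs tested. miR-21a-5p was higher on day 21 than on day 3 by 0.77 (SE 0.194, limma adjusted p = 0.00192), with signals of 2.48, 2.85, 2.20 and 2.39 on day 3, 3.63, 3.45, 3.17 and 3.66 on day 9 and 3.26, 3.26, 2.76 and 3.73 on day 21. Its day 9 arrays all lay above its day 3 arrays. miR-23a-3p was also higher on day 21 (0.70). miR-709 was called with its highest mean on day 9, 0.61 over day 3, while its day 21 mean was 0.37 over day 3 (SE 0.185). miR-1224-5p was lower on day 21 by -0.58 (SE 0.148, limma adjusted p = 0.00905), and so were miR-8110 (-0.72) and miR-3960 (-0.62). miR-451a was not called (0.69, SE 0.231, limma adjusted p = 0.061).

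Day 21 is confounded with its slide, so the comparison within slide 1 was made too. There day 3 and day 9 lie in different rows, so a difference of day and one of row cannot be told apart. Days 3 and 9 alone gave 35 of 195 miRNAs (17.9% of those tested), 25 higher and 10 lower on day 9. Of the 35, 34 were among the 63, but the F test uses these same arrays, so this overlap is not independent support. The count of 63 was 35 without control day 3 replicate 1 and 34 without control day 3 replicate 4. It was 95 with the 75th percentile over all probes, of which 84 were higher on day 21, and quantile normalization gave 63 with 29 higher. It was 2 with normexp background correction and 0 without scaling.

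The spread between control arrays differed widely between miRNAs. Over the 154 miRNAs on all 12 arrays, the SD of the log2 scaled signal had a median of 0.33 (0.15 to 1.03), and the pooled SD within days a median of 0.254. The standard error from the repeat spots of 1 probe, which holds only the technical noise within an array, had a median of 0.0264. Arrays of 1 day correlated across these miRNAs at a median r of 0.974 and arrays of different days at 0.955, and the lowest pair, control day 3 replicate 4 and control day 21 replicate 4, was at 0.883. These are correlations across miRNAs of different brightness and are given as a description.

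The steadiest miRNAs were miR-140-3p (SD 0.147), miR-6392-3p (0.170), miR-370-3p (0.177), miR-7082-5p (0.184), miR-6995-5p (0.190) and miR-5112 (0.192). The log2 scaled signal of miR-140-3p stayed between -0.84 and -0.46 on the 12 arrays. They lie between places 26 and 156 by mean share, so none is among the 20 brightest.

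The least steady were miR-7022-3p (SD 1.03), miR-3620-3p (1.03), miR-7080-3p (1.01), miR-378b (0.666), miR-378d (0.657) and miR-142a-3p (0.607). The first 3 kept nearly the same raw signal while the arrays differed 8.28-fold in brightness. miR-7080-3p read 23.3 ± 2.12 fluorescence units (SD, n = 12; 19.5 to 26.1), miR-3620-3p 19.3 ± 2.75 (15.3 to 26.2) and miR-7022-3p 12.5 ± 1.57 (9.78 to 15.4). Their slopes of log2 signal on the array's log2 75th percentile within days were -0.03, -0.03 and -0.04, where the median of the 154 was 1.01 and the next lowest 0.769. On the brighter TSN arrays they read no higher, with medians of 16.7, 14.5 and 10.3. Their probes are shown with runs of 3 or more G in capitals, a feature seen in all of them.
miR-7080-3p: aGGGaacggaGGGG
miR-3620-3p: tGGGGtGGGcg
miR-7022-3p: tGGGGGcagaggtc
Among the 154 miRNAs, 4 have a probe with 50% G or more, these 3 and miR-328-3p. On the whole array 127 miRNAs have one. The scanner's flag counted these 3 as present on every control array.

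miR-378b and miR-378d varied together. As for let-7, the arrays do not tell how far the probes of these relatives also bind each other's RNA. miR-378b read 26.6, 11.9, 22.6 and 32.4 fluorescence units on day 3, 16.8, 17.9, 47.1 and 20.4 on day 9, and 17.6, 76.5, 361 and 32 on day 21. Its highest array, control day 21 replicate 3, is also the brightest control array. miR-142a-3p was highest on control day 21 replicate 4, at 1.67 on the log2 scale, where the others of that day were at 0.53, 0.50 and -0.05.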

How the data were processed

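Members and lists were chosen with earlier results of these data known. The deposited intensity was background-subtracted by the scanner software (Feature Extraction 10.7.1.1, per the file headers) and not scaled between arrays; each array held 58594 spots, 56430 of them no controls, for 4415 probes, with no saturated spot. Control spots and the software's outlier spots (1135 to 1956 per control array) were left out, spots of a probe (median 15) averaged, and the probe with the highest mean over 24 arrays stood for a miRNA. The authors' deposited log2 values (column medians 4.37 to 4.40) rose with the log2 scanner values (r of 0.936 to 0.967); their scaling and centring stay unknown. The number of arrays limits the precision.

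For limma (3.58.1, R 4.3.3), signals were divided by the array's 75th percentile over 261 probes, floored at 0.0135 and put on the log2 scale; miRNAs that passed the background flag on all 4 arrays of a control day were tested. The 4 array measures were compared by exact two-sided permutation, and correlations by 100000 resamples. List and family shares are described without a test, although a test had been planned. On simulated data of 202 miRNAs the F test for control days recovered 20 of 20 changes of 2, 18 of 20 of 1 and 8 of 20 of 0.5 (log2), with 1 false call. The simulated noise was independent between miRNAs and between arrays, and the changes were put on day 21. It held no effect of slide, row or brightness, so it does not tell how many calls in the real arrays are false. Slides were read from headers. Same-numbered control arrays share a slide column. Their deviations correlated at -0.505 to 0.53 (median 0.195), and those of other arrays of different days at a median of 0.039. The samples were not treated as pairs, and these values do not exclude a pairing.

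The rule for miRNAs named took the 20 brightest, the 6 steadiest and 6 least steady, the 6 smallest adjusted p, the 2 brightest of each list, the 5 leading seeds, precursors with both arms on all 12 arrays and miR-106b-5p. Others, such as undetected list members, further families and miRNAs with discordant probes, were named after their values were seen. Alternatives covered scaling, background, probe summary, denominator, filter, floor, block and arrays left out. RefSeq's table (GRCm38.p6) held 1608 of the 1881 names.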

Additional observations from a re-analysis of the deposited data

Results flagged for a closer look

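Over 58 values in each of the 3 control days (174 groups of 4), 13 groups held an array whose gap to the nearest of the others, over the range, was above Dixon's critical value of 0.829; chance flags about 1 in 20 groups. On control day 3, replicate 1 was highest in the share of miR-1224-5p (22%, others 20.6% to 20.8%) and of miR-3963 (3.32%, others up to 2.24%). On the same day, replicate 4 needed 5 miRNAs for 50% of the signal where the others needed 4. This count takes whole numbers, so 1 array that differs from 3 equal ones is always flagged. The rate of 1 in 20 does not hold for it. Replicate 4 was also lowest for miR-486a-5p (0.889%, others from 1.18%) and highest for miR-2137 (1.16%, others up to 0.810%). On control day 9, replicate 3 was highest in the log2 scaled signal of miR-140-3p (-0.59, others up to -0.80) and of miR-425-5p (-2.65, others up to -3.00), and replicate 4 in that of miR-378d (-2.02, others up to -2.78). On control day 21, replicate 3 was highest for miR-7047-5p (0.859%, others up to 0.545%) and miR-494-3p (1.03%, others up to 0.558%). On that day, replicate 4 was lowest in the 5p share (75.3%, others from 78.6%) and in the share of miRNAs numbered 3000 and above (28.7%, others from 36.6%), and highest in the miR-17 superfamily (2.46%, others up to 2.18%).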

How the results depend on the processing

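The share of the 20 brightest miRNAs, 74.9%, was 60.5% with the total gene signal, 61.9% with normexp, 65.4% in the authors' values, 76.6% over miRNAs present on all 12 arrays and 72.9% over all miRNAs; 15, 20, 16, 20 and 20 of the 20 were in the first 20 there. Under the total gene signal miR-710 and miR-711 entered the first 10; their deposited totals were within 5% of that of miR-709 on 11 of 12 control arrays, while their probes read medians of 15.1 and 64.9. The miRNAs called between control days numbered 95 with the 75th percentile over all probes, 0 without scaling (52 at an unadjusted p under 0.05, limma), 2 with normexp, 35 for days 3 and 9 only, and 34 to 75 with 1 array left out. The median day difference of all miRNAs was 0.261 and 0.521 under the first 2 of these, against -0.0949. With the replicate number as a block 58 were called, 55 of them among the 63. Calls with 88.4% higher on day 21 (all probes), 46.0% (quantile) and 85.7% (no filter) compare with 65.1%. Between arms, the top-10 difference reversed to -0.885 with normexp and -4.71 in the authors' values. The number for 50% was -0.5 with normexp (adjusted p = 0.391) and turned to 1.92 in the authors' values, and the 5p share to -0.55. The 5p difference between control days was -5.2 with the total gene signal (adjusted p = 0.38) and -2.22 without day 21, and the 5p share in controls was 77.4% with the total gene signal. The median SD was 0.983 without scaling. Day 21 minus day 3 turned to -0.51 for miR-185-5p and -2.86 for miR-669f-3p with the total gene signal, and to -0.0753, -0.0182 and -0.0489 for miR-185-5p, miR-425-5p and miR-669f-3p with normexp. The cause was not tested. Of the other alternatives of the main results, 258 were labelled as unchanged. For the array measures this meant the same side of the threshold with no reversal of a call. For shares, the overlap of the brightest, counts and the spread it meant only a change within a set margin.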
